A study of Mus musculus with 6 samples.

Results

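The genes described here encode collagen chains and the enzymes that cross-link, modify and process them. The list held 53 genes, which were found in the deposited counts by symbol and gene identifier. Of these, 51 had 10 or more counts in at least 3 of the 6 samples and were kept, 40 collagen chains and 11 enzymes or chaperones, among 56748 identifiers in all. Genes were grouped as fibrillar (11 chains), basement membrane (9), FACIT (9, fibril-associated collagens with interrupted triple helices), other collagens (11) and cross-linking and processing (11). *Col10a1* and *Col28a1* were not kept, with at most 5 and 12 counts in any sample. The kept genes nearest to that limit were *Col19a1* with 9 to 14 counts, *Pcolce2* with 7 to 15, *Col4a3* with 8 to 19 and *Col4a4* with 9 to 27.

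Ureters of wildtype NMRI mouse embryos were explanted at E12.5 and cultured on membranes for 18 h, either in medium with 15 mM LiCl or in medium with water as control. LiCl is an inhibitor of GSK3B, the kinase that marks beta-catenin for destruction. Poly-A selected RNA of 3 samples per group was sequenced, and total counts lay between 28473436 and 31266945 per sample. The labels do not state how many ureters a sample holds or whether samples were separate cultures, so p-values measure the spread between these samples, which may be technical. Explants hold epithelium, mesenchyme and other cells, and LiCl was added to the whole tissue. Levels are given as FPKM, here fragment counts scaled to a length and to a size factor of each sample. The summed FPKM of 7 ureteric epithelium markers lay between 420.2 and 528.8 in controls and between 341.9 and 363.7 after LiCl. For 7 ureteric mesenchyme markers it lay between 503.3 and 518.4 in controls and between 479.9 and 490.4 after LiCl. All 14 passed the filter. At an adjusted p under 0.05, 5 epithelial markers were lower (71.4%) and 1 higher (14.3%). Of the mesenchymal markers 3 were lower and 3 higher (42.9% each). Beside these shares, 22.4% of all tested genes fell and 21.1% rose. Smooth muscle markers, 7 genes including *Acta2*, summed to 25.1 to 37.1 FPKM in controls and 18.9 to 24.7 after LiCl. Of the 6 that passed the filter, 4 were lower (66.7%). The part of these differences in the collagen values was not tested, and in whole explants fewer cells of a type and less RNA per cell cannot be told apart.

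Collagens are made as chains that are hydroxylated on proline and lysine in the endoplasmic reticulum, folded into triple helices by chaperones, secreted, trimmed at their ends and cross-linked outside the cell. Fibrillar types I, III and V give connective tissue its tensile strength, type IV forms the network of basement membranes below epithelia and endothelia, and FACIT chains sit on the surface of fibrils. In developing organs most fibrillar collagen comes from mesenchymal cells.

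In LiCl-treated ureters, 27 of the 51 genes fell and 5 rose at an adjusted p under 0.05 (edgeR's quasi-likelihood test with Benjamini-Hochberg adjustment over 18188 genes). That was 52.9% of the collagen genes for the falls, whereas 22.4% of all tested genes fell, and 9.8% for the rises, whereas 21.1% of all tested genes rose. The remaining 19 did not pass. With a log2 fold change below -1 as a further threshold, 7 genes (13.7%) were lower, beside 4.59% of all tested genes. None was higher by more than 1, beside 2.74% of all tested genes: the count was 0 with edgeR, with DESeq2 and at an unadjusted p under 0.05, since the highest log2 fold change was 0.45. The median log2 fold change of the 51 genes was -0.30, and that of all tested genes was -0.01. FPKM values of the groups did not overlap for 25 of the 51 genes on the lower side and for 5 of the 51 (9.8%) on the higher side. Each of these genes had also passed the adjusted p. Of all tested genes, 26.22% were lower and 28.03% higher without overlap.

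**Figure D1:**
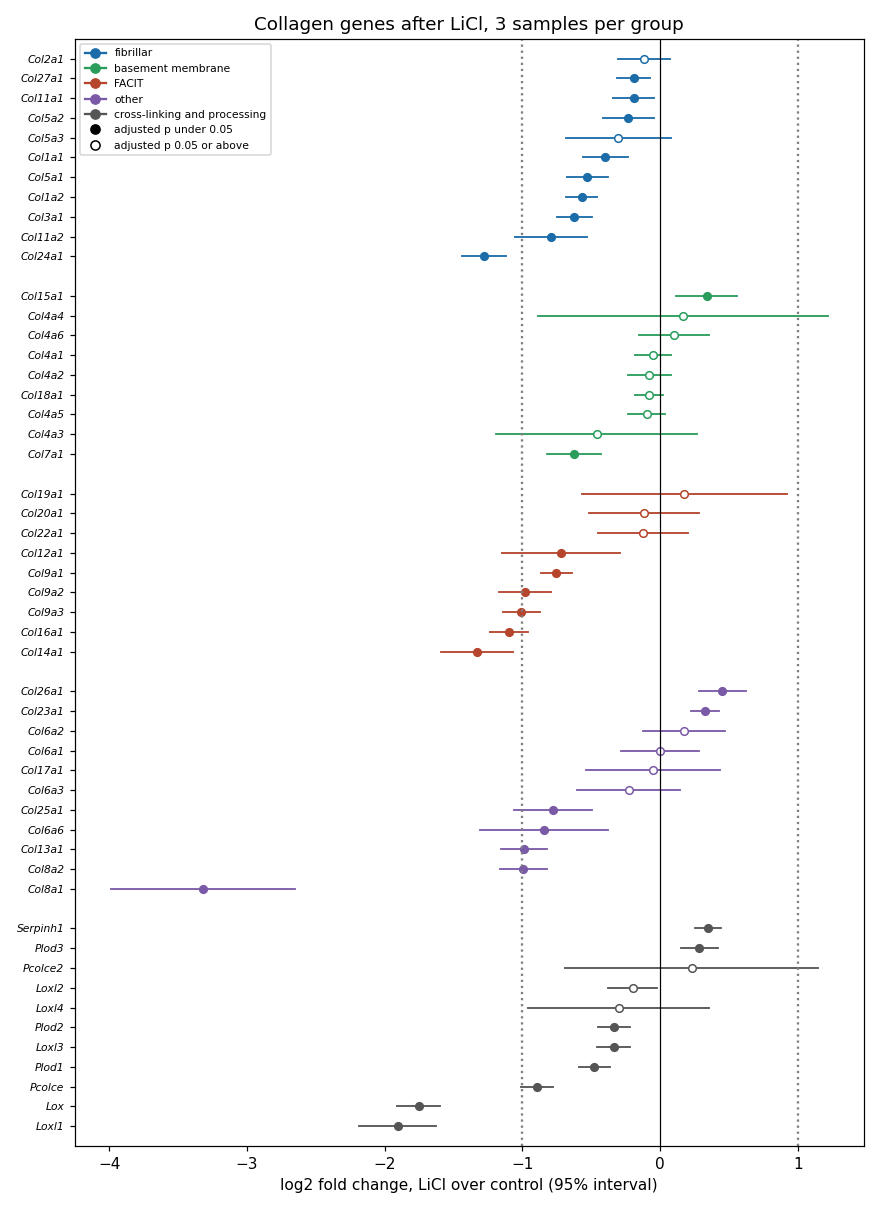
Log2 fold change (LiCl over control) of the 51 kept collagen genes with its 95% interval, by group. Filled points passed an adjusted p of 0.05, and dotted lines mark log2 fold changes of -1 and 1. No fibrillar chain lies above 0, most basement membrane chains lie near 0, and *Col8a1* at -3.32 lies farthest out.

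The genes that were lower by more than 1 on the log2 scale were *Col8a1*, *Loxl1*, *Lox*, *Col14a1*, *Col24a1*, *Col16a1* and *Col9a3*. Of these, *Col9a3* lay at the threshold at -1.01, and *Col8a2* at -0.99, *Col13a1* at -0.99 and *Col9a2* at -0.98 lay just on the other side, each within its standard error of 0.06 to 0.08 of the line. The other 6 passed under each alternative normalization, filter and left-out sample, and *Col8a1*, *Loxl1*, *Lox* and *Col24a1* also passed glmTreat, which tests for changes beyond 1 on the log2 scale.

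Sequences of 250 bases before the transcription start, from RefSeq for GRCm38.p6, are shown for *Col9a1* and *Col9a2*, which hold the letters CTTTGA, and for the gene with the largest fall. These letters are the core of the sequence that TCF and LEF factors bind, and capitals mark them on either strand. The counts were made on GRCm39, so the positions belong to the older build only.
*Col9a1* chr1:24177360-24177609, plus strand: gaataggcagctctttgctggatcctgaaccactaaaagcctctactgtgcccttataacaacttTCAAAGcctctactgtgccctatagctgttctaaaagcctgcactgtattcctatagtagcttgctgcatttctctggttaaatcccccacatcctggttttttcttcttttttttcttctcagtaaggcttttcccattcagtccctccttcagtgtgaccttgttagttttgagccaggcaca
*Col9a2* chr4:121039316-121039565, plus strand: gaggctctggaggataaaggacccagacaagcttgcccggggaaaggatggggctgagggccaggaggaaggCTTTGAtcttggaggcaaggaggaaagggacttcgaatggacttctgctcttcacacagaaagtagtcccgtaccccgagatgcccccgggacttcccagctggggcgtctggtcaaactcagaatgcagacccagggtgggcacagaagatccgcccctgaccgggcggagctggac
*Col8a1* chr16:57754738-57754987, minus strand: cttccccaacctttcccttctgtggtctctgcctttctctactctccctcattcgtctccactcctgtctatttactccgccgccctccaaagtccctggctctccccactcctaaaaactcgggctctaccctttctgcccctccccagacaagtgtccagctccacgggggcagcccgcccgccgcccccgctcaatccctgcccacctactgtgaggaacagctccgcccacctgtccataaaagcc
CTTTGA was searched on both strands, and it was present in 10 of the 37 kept collagen genes with a sequence, beside 15.8% of 27025 mouse genes. Among the 18 of these genes that fell it was found in 3, *Col9a1*, *Col9a2* and *Col13a1*. The other genes with these letters were *Col15a1* and *Plod3*, which rose, and *Col5a3*, *Col6a1*, *Col6a2*, *Col19a1* and *Col20a1*, which did not pass. Of the genes below -1 on the log2 scale, *Col8a1*, *Col16a1* and *Col24a1* had a sequence, without these letters. *Lox*, *Loxl1*, *Col14a1* and *Col9a3* had no sequence and were not searched. The RefSeq table lists a further start of *Col9a1*, whose window does not hold these letters. GGGCGG, the core of the GC box, was in 24 of the 37 genes and 14 of the 18 that fell, beside 35.4% of all genes. TATAAA was in 5 of the 37 and 4 of the 18, beside 14.3%. These matches describe the letters in the window and do not show binding.

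Among the fibrillar chains, 9 of 11 fell (81.8%, beside 22.4% of all tested genes) and 2 did not pass. Their median log2 fold change was -0.40, with all 11 estimates below 0. *Col1a1* and *Col1a2* encode the chains of type I collagen. *Col1a1* stood at 420.5, 373.4 and 387.7 FPKM in control replicates 1 to 3 and at 309.4, 270.0 and 328.5 FPKM after LiCl, a log2 fold change of -0.40 ± 0.07 (SE, n = 3 per group, edgeR adjusted p = 0.00214). *Col1a2* went from 149.9, 134.8 and 143.7 FPKM to 98.2, 93.6 and 100.3 FPKM, -0.57 ± 0.05 (adjusted p = 3.61e-05). For both chains every LiCl sample lay below every control, and by the fitted fold *Col1a1* fell by 24.1% and *Col1a2* fell by 32.6%. *Col3a1*, the chain of type III collagen, measured 195.0, 182.9 and 186.4 FPKM in controls and 127.7, 113.2 and 129.6 FPKM after LiCl (log2 fold change -0.62 ± 0.06, adjusted p = 3.89e-05). *Col5a1*, a chain of the type V collagen that takes part in starting fibrils, measured 99.2, 85.7 and 92.3 FPKM in controls and 60.4, 65.9 and 68.1 FPKM after LiCl (-0.53 ± 0.07, adjusted p = 0.000254). Neither gene showed overlap between the groups. *Col1a1*, *Col1a2* and *Col3a1* together made up 44.7% to 45.5% of the summed FPKM of all chains in controls and 39.6% to 42.0% after LiCl. The summed FPKM of the 11 fibrillar chains was 934.8, 843.3 and 881.2 in controls and 654.9, 605.3 and 684.7 after LiCl.

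*Col24a1*, a fibrillar chain of low level, fell most within the group. It measured 3.05, 3.12 and 3.21 FPKM in controls and 1.26, 1.35 and 1.31 FPKM after LiCl, so the LiCl samples held less than the lowest control by a wide margin (log2 fold change -1.28 ± 0.07, adjusted p = 2.06e-06). *Col11a2*, a type XI chain, had a log2 fold change of -0.80 (adjusted p = 0.000588). The falls of *Col5a2* (-0.23, adjusted p = 0.0445), *Col11a1* (-0.19, 0.0383) and *Col27a1* (-0.19, 0.0174) were smaller, and the groups overlapped for *Col5a2* and *Col11a1*. Under the alternatives the adjusted p of *Col5a2* ranged from 0.00271 to 0.142, that of *Col11a1* from 0.0132 to 0.14 and that of *Col27a1* from 0.00596 to 0.0816. Of the fits with 1 sample left out, *Col5a2* passed in that without control replicate 2, and the other 5 gave 0.0504 to 0.142. *Col11a1* did not pass without control replicate 1 or 3 or LiCl replicate 1 or 3 (0.0933 to 0.14), nor with a replicate block (0.0879), and *Col27a1* did not without control replicate 3 or LiCl replicate 2 or 3 (0.0605 to 0.0816). *Col2a1*, the chain of type II collagen known from cartilage, had a log2 fold change of -0.11 (95% interval -0.30 to 0.07, adjusted p = 0.3) and passed only without LiCl replicate 2, at -0.23 (0.0106; range over the alternatives 0.0106 to 0.693). For *Col5a3* the value was -0.30 (-0.68 to 0.08, adjusted p = 0.178).

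**Figure D2:**
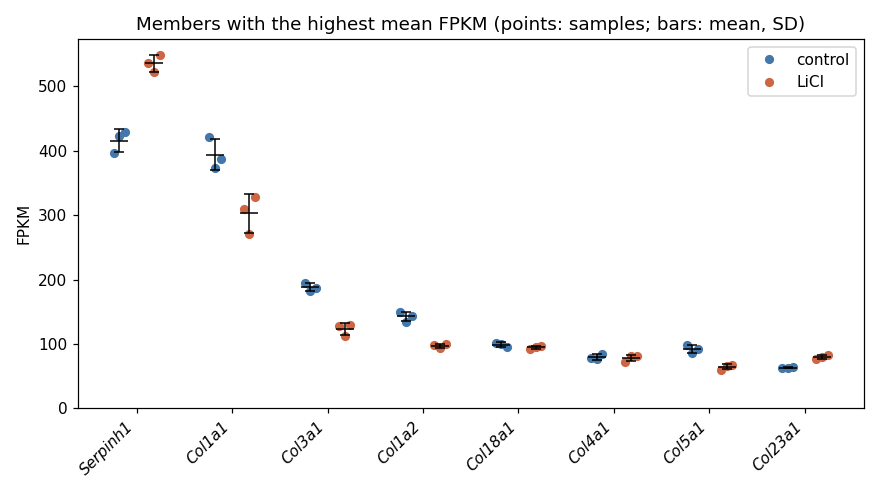
FPKM of the 8 collagen genes with the highest mean level. Points are samples, 3 per group, and bars give the mean with its SD. The 4 fibrillar chains are lower in every LiCl sample than in every control, *Serpinh1* and *Col23a1* are higher, and *Col18a1* and *Col4a1* overlap.

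Of the 9 basement membrane chains, 1 fell and 1 rose (11.1% each, beside 22.4% and 21.1% of all tested genes). The other 7 did not pass, and the median log2 fold change of the 9 was -0.08. *Col4a1* and *Col4a2*, the chains of the main type IV network, are transcribed from 1 shared start region in opposite directions. *Col4a1* stood at 78.7, 76.8 and 84.6 FPKM in controls and 72.2, 80.9 and 80.9 FPKM after LiCl, a log2 fold change of -0.05 with a 95% interval from -0.19 to 0.08 (adjusted p = 0.485). *Col4a2* had a log2 fold change of -0.08 (interval -0.23 to 0.08), and the ratio of *Col4a1* to *Col4a2* FPKM was 1.31 to 1.36 in controls and 1.30 to 1.40 after LiCl. *Col18a1*, whose end fragment is endostatin, stood at 102.3, 100.6 and 94.9 FPKM in controls and 92.3, 95.9 and 96.3 FPKM after LiCl (-0.08, interval -0.19 to 0.02, adjusted p = 0.166). The groups overlapped for these 3 genes. *Col4a5* and *Col4a6*, chains of further type IV networks, had log2 fold changes of -0.10 (adjusted p = 0.214) and 0.10 (0.513), and *Col4a6* passed only without control replicate 1, at 0.26 (0.0275; range 0.0275 to 0.887). *Col4a3* (-0.46) and *Col4a4* (0.16) were near 0.05 FPKM in both groups, and their intervals from -1.19 to 0.27 and from -0.89 to 1.22 show that changes of this size were not detectable at this depth. *Col7a1*, the chain of anchoring fibrils, fell by 0.63 on the log2 scale (adjusted p = 0.000424). The summed FPKM of the 9 chains was 280.9, 273.1 and 281.6 in controls and 262.0, 275.2 and 287.3 after LiCl.

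*Col15a1*, a basement membrane chain related to *Col18a1*, rose, with a log2 fold change of 0.34 ± 0.10 (adjusted p = 0.0218). This gene and 3 type VI chains were singled out after their values were seen, because LiCl replicate 2 stood apart in them. That was not particular to these 4 genes. The log2 ratio of LiCl replicate 2 to the lower of LiCl replicates 1 and 3 was -0.52 for *Col6a2*, -0.49 for *Col6a1*, -0.33 for *Col15a1* and -0.23 for *Col6a3*. It was -0.88 for *Loxl4* and -0.63 for *Pcolce2*, which had only 22 to 45 and 7 to 15 counts in the LiCl samples. The gene next after *Col6a3* in this order was *Col1a1*, at -0.20. In *Col8a1*, *Col12a1* and *Col25a1*, among others, LiCl replicate 2 was the highest LiCl sample. *Col15a1* measured 24.5, 21.4 and 23.3 FPKM in controls and 31.1, 24.7 and 32.8 FPKM after LiCl, and replicate 2 lay barely above the highest control. Its call was lost without control replicate 2 or 3 or LiCl replicate 1 or 3 (adjusted p 0.0535 to 0.0758), and the range over the alternatives was 2.35e-05 to 0.0758. *Col6a1*, a chain of the beaded type VI filaments, stood at 72.7, 63.0 and 66.2 FPKM in controls and 77.1, 52.8 and 74.3 FPKM after LiCl, so that LiCl replicates 1 and 3 lay above every control and replicate 2 below every control. *Col6a2* went the same way, from 29.0, 25.3 and 25.7 FPKM to 33.2, 23.2 and 34.8 FPKM. *Col6a3* stood at 23.9, 15.0 and 19.1 FPKM in controls and 16.3, 14.0 and 19.8 FPKM after LiCl, again with the lowest value in LiCl replicate 2.

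Their log2 fold changes were -0.001 for *Col6a1* (95% interval -0.28 to 0.28), 0.17 for *Col6a2* (-0.13 to 0.47) and -0.23 for *Col6a3* (-0.60 to 0.15), and none passed. Without LiCl replicate 2, *Col6a2* was at 0.33 (adjusted p = 0.00617, range over the alternatives 0.00617 to 0.72) and *Col6a1* at 0.15 (0.113). *Col6a2* also passed in the fit of all 6 samples without a filter on low counts, at 0.20 (0.0498). With LiCl replicate 2 as the only LiCl sample, *Col6a1* was at -0.35 (0.0293), *Col6a2* at -0.21 (0.158) and *Col15a1* at 0.09 (0.528). The summed FPKM of 8 skeletal muscle markers was 12.04, 2.74 and 26.2 in LiCl replicates 1 to 3, beside 2.97 to 3.32 in controls. The higher values stood in the same LiCl samples as the higher *Col6a1*, *Col6a2* and *Col15a1*, and their part in these chains was not tested. Of the 8 markers, none was at 0 in every sample and 6 passed the filter. Of these 6, 4 rose (66.7%, beside 21.1% of all tested genes), among them *Myog* and *Myh3*. With LiCl replicate 2 as the only LiCl sample, 25 collagen genes fell and 3 rose, beside 10.9% of all genes in that fit that fell and 10.4% that rose.

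**Figure D3:**
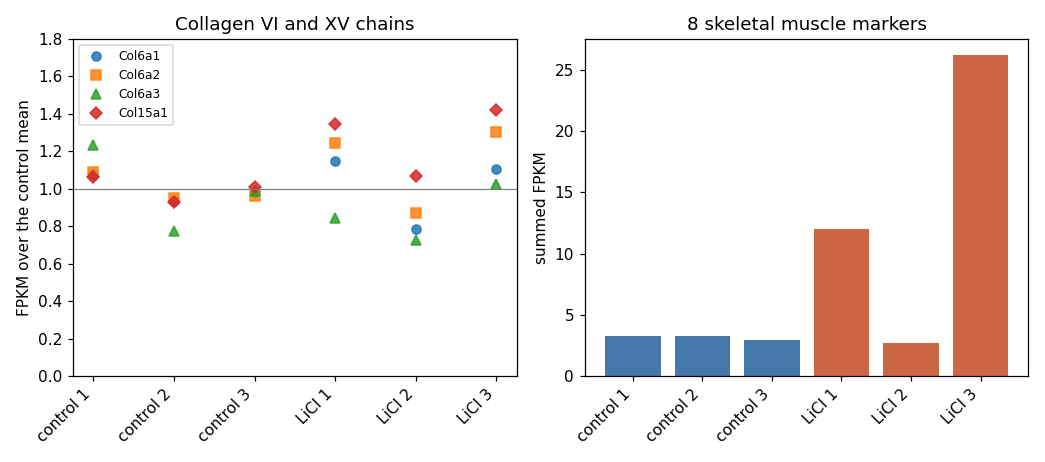
Left, FPKM of *Col6a1*, *Col6a2*, *Col6a3* and *Col15a1* in each sample over the control mean of that gene. Right, summed FPKM of 8 skeletal muscle markers in the same samples, where LiCl replicates 1 and 3 reach 12.04 and 26.2 and replicate 2 stays at 2.74.

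FACIT chains fell in 6 of 9 cases (66.7%, beside 22.4% of all tested genes), and none rose, beside 21.1%. Their median log2 fold change was -0.75, and the 3 that did not pass did not exceed 1.803 FPKM in any sample. Their summed FPKM was 205.3, 190.2 and 193.6 in controls and 104.0, 98.6 and 100.3 after LiCl. *Col14a1*, a chain found on type I fibrils, stood at 30.0, 23.1 and 26.3 FPKM in controls and 9.05, 11.6 and 11.4 FPKM after LiCl (log2 fold change -1.33 ± 0.12, adjusted p = 3e-05). *Col16a1*, which binds to fibrils and to cells, stood at 36.5, 39.4 and 36.3 FPKM in controls and 18.3, 16.2 and 18.5 FPKM after LiCl (-1.10 ± 0.06, adjusted p = 2.27e-06). The lowest control exceeded the highest LiCl sample in both. *Col12a1*, the relative of *Col14a1*, fell by 0.72 on the log2 scale (adjusted p = 0.0133). *Col19a1* (0.18), *Col20a1* (-0.12) and *Col22a1* (-0.13) did not pass, with adjusted p from 0.511 to 0.697 and intervals that reached from -0.57 to 0.92 for *Col19a1*.

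The 3 chains of type IX collagen, which forms 1 triple helix from all 3 gene products and is best known from cartilage, fell side by side. *Col9a1* measured 24.0, 24.2 and 26.1 FPKM in controls and 14.9, 15.0 and 14.5 FPKM after LiCl (log2 fold change -0.75 ± 0.05, adjusted p = 5.87e-06). *Col9a2* measured 79.4, 76.3 and 73.8 FPKM in controls and 45.1, 35.7 and 37.0 FPKM after LiCl (-0.98 ± 0.08, adjusted p = 2.92e-05). *Col9a3* measured 11.9, 11.8 and 12.3 FPKM in controls and 6.39, 5.77 and 5.90 FPKM after LiCl (-1.01 ± 0.06, adjusted p = 2.81e-06). No LiCl sample reached the lowest control for any of the 3 chains. The ratio of *Col9a2* to *Col9a3* FPKM was 5.98 to 6.70 in controls and 6.18 to 7.06 after LiCl, whereas that of *Col9a1* to *Col9a3* was 2.02 to 2.11 and 2.34 to 2.61. *Col9a3* was no longer below -1 with RLE size factors (-0.998), with DESeq2 (-0.998), without the filter (-0.98) and without control replicate 3 (-0.98), LiCl replicate 2 (-0.98) or LiCl replicate 3 (-0.99). *Col9a3* also shares 6.1% of its exon bases with *Tcfl5* on the opposite strand. *Tcfl5* had a mean of 14.7 counts, beside 622 to 1471 counts for *Col9a3*. Whether counting used strand is not given in the sources used here.

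Markers of cartilage, the tissue in which type IX chains and *Col2a1* are best known, were at mixed levels. *Acan*, the main proteoglycan of cartilage, had a mean of 0.04 FPKM in both groups, *Comp* 0.05 and 0.08 FPKM, *Cnmd* 0.07 and 0.10 FPKM, and *Matn1* 0.005 and 0 FPKM. The transcription factor gene *Sox9*, which the ureter also uses, stood at 51.9 ± 0.4 FPKM in controls and 44.2 ± 1.9 FPKM after LiCl (SD, n = 3 each). Of the 8 chondrocyte markers, 4 passed the filter, of which 3 fell (75%) and 1 rose (25%). Of all tested genes, 22.4% fell and 21.1% rose. *Hapln1*, which links proteoglycans to hyaluronan, fell together with the type IX chains, from 4.67, 4.91 and 5.41 FPKM to 2.01, 2.01 and 1.99 FPKM (log2 fold change -1.34 ± 0.07, adjusted p = 2.06e-06). *Sox9* (-0.25, adjusted p = 0.00238) and *Matn4* (-0.29, 0.0058) also fell, and *Matn3* rose by 1.33 (0.0205) from a mean of 0.08 FPKM. The sum of all 8, most of it *Sox9*, was 61.9 to 63.2 FPKM in controls and 48.7 to 52.7 FPKM after LiCl. The part of these markers' cells in the type IX values was not tested.

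Among the other collagens 5 of 11 fell (45.5%) and 2 rose (18.2%), beside 22.4% and 21.1% of all tested genes. The remaining 4 did not pass, and the median log2 fold change of the 11 was -0.23. *Col8a1* and *Col8a2* encode the chains of type VIII collagen, a short-chain network collagen of vessels and cornea. *Col8a1* measured 0.80, 1.51 and 1.45 FPKM in controls and 0.09, 0.17 and 0.12 FPKM after LiCl, from 183 to 369 counts and from 23 to 37 counts. The group mean was 90.0% lower after LiCl by the fitted fold (log2 fold change -3.32 ± 0.30, adjusted p = 3.48e-05), and the lowest control still exceeded the highest LiCl sample. *Col8a2* measured 21.8, 19.2 and 19.4 FPKM in controls and 10.8, 9.29 and 10.6 FPKM after LiCl (-0.99 ± 0.08, adjusted p = 1.41e-05). *Col8a2* was the main type VIII chain in all samples, at 12.7 to 27.3 times the FPKM of *Col8a1* in controls and 55.0 to 114.5 times after LiCl.

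**Figure D4:**
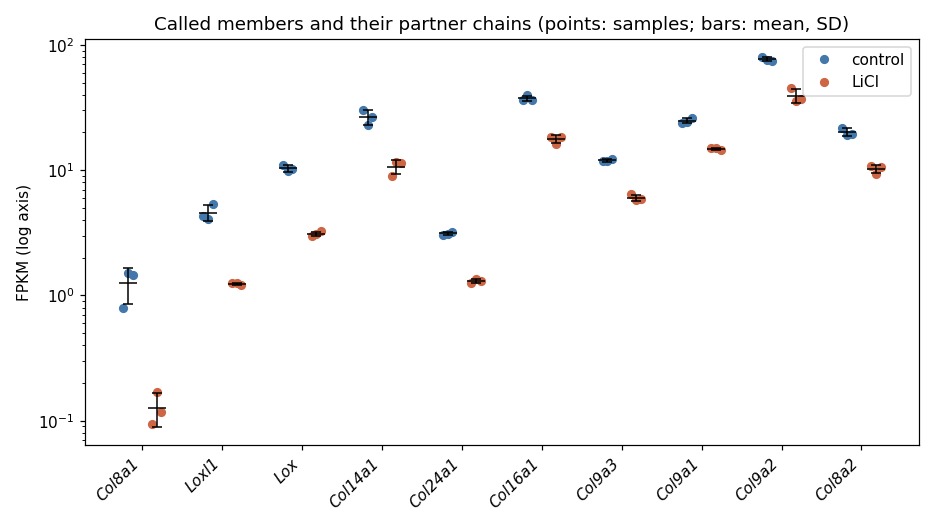
FPKM (log axis) of the 7 genes with a log2 fold change below -1 and of the other chains of type VIII and type IX collagen. Points are samples, 3 per group, and bars give the mean with its SD. For each gene all LiCl samples lie below all controls, and *Col8a1* shows the widest gap.

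*Col13a1* (log2 fold change -0.99), *Col25a1* (-0.78), *Col23a1* (0.33) are collagens that span the cell membrane, and they did not move in one direction. *Col23a1* was the most abundant of them, at 63.2, 62.5 and 63.6 FPKM in controls and 76.8, 80.5 and 82.8 FPKM after LiCl (± 0.04 SE, adjusted p = 0.000385). The falls of *Col13a1* and *Col25a1* had adjusted p of 1.35e-05 and 0.00098, and all 3 genes showed no overlap between the groups. *Col17a1*, a further membrane collagen known from hemidesmosomes, was near 0.2 FPKM in both groups (-0.05, interval -0.54 to 0.44). *Col26a1* rose (0.45, adjusted p = 0.00125), the highest log2 fold change of the 51 genes. *Col6a6*, a long type VI chain of low level, fell by 0.84 on the log2 scale (adjusted p = 0.00907).

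Genes for cross-linking and processing gave 6 falls (54.5%) and 2 rises (18.2%), beside 22.4% and 21.1% of all tested genes. A further 3 did not pass, and the median log2 fold change of the 11 was -0.33. Lysyl oxidases start the cross-links between collagen molecules. *Lox* stood at 11.03, 9.81 and 10.1 FPKM in controls and 2.99, 3.07 and 3.24 FPKM after LiCl (log2 fold change -1.75 ± 0.07, adjusted p = 3.66e-07). *Loxl1*, which is also known for its part in elastic fibres, stood at 4.33, 4.09 and 5.31 FPKM in controls and 1.25, 1.25 and 1.21 FPKM after LiCl (-1.91 ± 0.12, adjusted p = 5.31e-06). LiCl samples of both genes lay close together and below every control, and by the fitted fold *Lox* fell by 70.4% and *Loxl1* fell by 73.3%. *Loxl3* fell by 0.34 (adjusted p = 0.000868), and it shares 11.6% of its exon bases with *Htra2* on the opposite strand. *Htra2* had a mean of 873.5 counts, beside 952 to 1388 for *Loxl3*, and its part in the *Loxl3* value was not tested. *Loxl2* had a log2 fold change of -0.20 (interval -0.38 to -0.02, adjusted p = 0.0701), and it passed with library sizes only (0.038), with a replicate block (0.0268) and without control replicate 1 (0.0263), in a range of 0.0263 to 0.266. *Loxl4* (-0.30, adjusted p = 0.433) was at 0.43 FPKM or below. *Loxl2* was at 1.03 to 1.35 times the FPKM of *Lox* in controls and at 3.37 to 3.80 times after LiCl.

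Lysyl hydroxylases differed in direction. *Plod1* fell by 0.48 (adjusted p = 9.95e-05) and *Plod2*, which hydroxylates the ends of the chains, by 0.33 (0.000851). *Plod3*, which also adds sugars to hydroxylysine, rose by 0.28 (0.00445), with 11.7% of its exon bases shared with *Znhit1* on the opposite strand. *Znhit1* had a mean of 648.3 counts, beside 2394 to 3481 for *Plod3*, and its part in the *Plod3* value was not tested. *Serpinh1* encodes HSP47, the collagen chaperone of the endoplasmic reticulum, and had the highest mean FPKM of the 51 genes. Its level was 396.0, 422.4 and 429.1 FPKM in controls and 536.8, 521.7 and 548.5 FPKM after LiCl (log2 fold change 0.35 ± 0.04, adjusted p = 0.000218). Every LiCl sample exceeded every control, in the opposite direction to *Col1a1*, and the ratio of *Serpinh1* to *Col1a1* FPKM was 0.94 to 1.13 in controls and 1.67 to 1.93 after LiCl. *Pcolce*, an enhancer of the protease that trims the C-terminal ends of procollagens, fell by 0.89 (adjusted p = 2.58e-06), whereas *Pcolce2* (0.23, interval -0.69 to 1.14) had 7 to 15 counts, too few to show a change of that size.

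A further 33 genes of collagen synthesis and binding, none of them in the list above, gave 12 falls (36.4%, beside 22.4% of all tested genes) and 2 rises (6.06%, beside 21.1%), and 19 did not pass. Of 14 genes for prolyl hydroxylation and folding 6 fell (42.9%) and 1 rose (7.14%), beside the same 22.4% and 21.1%. *P4ha3*, a catalytic subunit of prolyl 4-hydroxylase, measured 6.72, 6.15 and 6.52 FPKM in controls and 1.37, 2.24 and 1.76 FPKM after LiCl (log2 fold change -1.88 ± 0.15, adjusted p = 1.98e-05), and it was the only one of the 33 beyond -1. *P4ha1*, the catalytic subunit with the highest FPKM, rose by 0.35 (adjusted p = 0.00101), and *P4ha2* was at -0.09 (0.323). *P3h3* fell by 0.87 (3.69e-05) and *Crtap*, which forms the prolyl 3-hydroxylation complex with *P3h1* and *Ppib*, by 0.41 (0.000293), while *P3h1* (-0.04) and *Ppib* (-0.02) did not pass.

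Of 6 genes for secretion and transcription control, *Sec24d* (-0.44) and *Creb3l1* (-0.32) fell and *Tmem38b* (0.52) rose. Among 6 genes for propeptide cleavage, the N-proteinase genes *Adamts14* (-0.81) and *Adamts2* (-0.67) fell, whereas *Adamts3* (-0.17, adjusted p = 0.285) did not pass. Mean FPKM was 2.47 for *Adamts3*, 0.93 for *Adamts2* and 0.75 for *Adamts14*. *Bmp1*, the C-proteinase, was at 0.02 (adjusted p = 0.796). Of 7 collagen receptors, *Itga1* (-0.57) and *Ddr1* (-0.18) fell, and *Ddr2* (-0.003) and *Mrc2* (0.04) were among the 5 that did not pass. In the last 3 groups 33.3%, 33.3% and 28.6% of the genes fell, and at these group sizes such shares are near the 22.4% of all tested genes.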

How the data were processed

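RNA-Seq of 3 control and 3 LiCl samples was grouped by the treatment in the sample labels. The authors deposited raw counts per gene, made by aligning quality-filtered reads to GRCm39 and counting with featureCounts. Their methods name HISAT2, while the submitters' processing notes list fastp 0.23, STAR 2.7, featureCounts 2.0 and DESeq2 1.40. The methods name stranded cDNA synthesis, but the annotation release and the strand setting of the counting are not given in the sources used here. Whether overlapping genes on opposite strands were counted apart is therefore unknown. FPKM values, deposited by the authors for each sample, were in 100% of 13480 genes with more than 50 counts in every sample equal to the counts divided by DESeq2 size factors and a length, within 0.1%. FPKM values were used for levels and counts for tests. Columns of the whole-series count table were matched to samples by the names given in the labels.

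LiCl and control counts were compared by the quasi-likelihood test of edgeR 4.0.16 (R 4.3.3), after filterByExpr and TMM, with p-values adjusted by Benjamini-Hochberg over 18188 genes. Standard errors came from the coefficient and the F statistic. A gene passed at an adjusted p under 0.05. The list of genes and groups, and the further lists, were chosen with earlier results of these data known, so no test over a list was made. Values in every sample are given for genes beyond a log2 fold change of 1, the other chains of the same collagen type, and the 8 genes of highest mean FPKM. Alternatives were RLE size factors, library sizes only, DESeq2 1.42.0, 3 other filters on low counts, the replicate number as a block, each sample left out in turn and glmTreat. LiCl replicate 2 alone against the controls was added after seeing the data. Symbols came from GENCODE vM21 (GRCm38), and promoter sequences from RefSeq (GRCm38.p6). On simulated counts, 200 genes were changed by 1.5 on the log2 scale, of which 191 passed the filter, and edgeR recovered 175 of these (91.6%) with 8 false calls among 18279 genes. An exact permutation test of 3 against 3 cannot give a p below 0.1, so tests rest on the model across all genes.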

Additional observations from a re-analysis of the deposited data

How the results depend on the processing

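Across the alternatives, 665 of 710 single-gene values kept their direction and side of the threshold, 22 lost and 8 gained a pass, and 15 changed sign, none of which passed after the change. Of the 51 genes, 24 to 28 fell, 4 to 6 rose and 6 to 10 were below -1, apart from 4 with glmTreat and 3 that rose with LiCl replicate 2 alone against the controls, an alternative chosen after seeing the data, in which the lone sample was assumed to vary like the controls. Leaving out 1 sample gave 24 to 27 falls, 4 to 6 rises and 7 to 9 below -1. The replicate block gave 27 falls, 5 rises and 7 below -1. Replicate numbers did not pair the samples (correlations of deviations 0.03, -0.09 and 0.10), and the block moved *Col11a1* and *Loxl2* across the threshold. The cause of the changes of sign was not tested. *Col6a1* changed sign with RLE size factors (0.010), DESeq2 (0.0099) and no filter (0.027), and ranged from -0.10 to 0.15 with 1 sample left out (0.06 without control replicate 1). With 1 sample left out, *Col4a1* ranged from -0.082 to 0.00063, *Col4a4* from -0.13 to 0.85 (-0.04 without control replicate 3), *Col17a1* from -0.13 to 0.033 (0.0050 without control replicate 1) and *Pcolce2* from -0.044 to 0.46. With LiCl replicate 2 alone, *Col2a1* was at 0.10, *Col4a1* at 0.0095, *Col6a2* at -0.21 and *Pcolce2* at -0.39. The depth of 28473436 to 31266945 counts limits statements on genes near 10 counts, such as *Col4a3*, *Col4a4*, *Col19a1* and *Pcolce2*.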
